A study of Mus musculus with 4 samples.

Results

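Bile duct epithelium dilutes and alkalinizes bile by moving chloride, bicarbonate and water into the duct lumen. The hormone secretin binds its receptor on the basolateral side, cyclic AMP opens the apical chloride channel, chloride is exchanged for bicarbonate, and water follows through aquaporins. A basolateral sodium pump and cotransporters keep this going, while sodium-coupled carriers take glucose and sodium back from bile. The 10 genes described here encode parts of that machinery: the secretin receptor (Sctr), 2 chloride channels (Cftr and Ano1), 2 bicarbonate transporters (Slc4a2 and Slc4a4), a chloride loader (Slc12a2), a sodium pump subunit (Atp1b1), an absorptive exchanger (Slc9a3), a glucose carrier (Slc5a1) and a water channel (Aqp1). They were chosen by name as bile duct secretion genes, with earlier results of these data known. All 10 were found among 41128 gene identifiers. They passed the filter of 10 counts in at least 1 library, as did 21640 genes in all.

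RNA came from livers of C57BL/6 mice with experimental alcoholic hepatitis, a state shared by every library. The animals drew 40% of their energy from freely eaten high-cholesterol, high-fat food and 60% from a liquid diet containing alcohol, delivered into the stomach, and were given a binge each week. Non-parenchymal cells were freed of hepatocytes by slow centrifugation and of CD45+ leukocytes with magnetic beads, and were then sorted by flow cytometry into Prom1+CD49f+CD45- cells, Prom1-CD49f+CD45- cells and Prom1+CD49f+CD45+ cells, with the presorted CD45- cells kept as their source. Prom1 (prominin-1) is a surface protein of progenitor and duct cells, CD49f is integrin alpha 6, and CD45 marks leukocytes. Each population had 1 library made from the pooled RNA of 2 mice, so there were no replicates, and no difference below was tested over samples. The labels give neither age nor sex of the mice.

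Levels are given as CPM, read counts relative to library size, after TMM scaling (a trimmed mean of the log ratios between libraries), called scaled CPM below, and intervals are exact 95% intervals that cover counting error only. A gene was called higher or lower where the whole interval of its ratio lay beyond 2-fold. Summed gene counts ranged from 14670239 in Prom1-CD49f+CD45- cells to 52293939 in presorted cells. The Prom1 transcript stood at 355 scaled CPM in Prom1+CD49f+CD45- cells, 31.1 in Prom1-CD49f+CD45- cells, 11.4 in the library labelled as Prom1+CD49f+CD45+ and 67.1 in presorted cells. Ptprc, the CD45 gene, was at 6.33, 3.60, 14.5 and 21.0 in that order. Because both genes lay below the presorted cells in the population whose label names both proteins as present, its label is given here as a label only. Itga6, the CD49f gene, was also below presorted cells in both CD49f+CD45- gates. It was 1.52-fold lower (1.44 to 1.59, not called) in Prom1+CD49f+CD45- cells and 2.19-fold lower (2.02 to 2.37, called) in Prom1-CD49f+CD45- cells. In the library labelled as Prom1+CD49f+CD45+ it was 1.15-fold higher (1.10 to 1.20, not called) than in presorted cells. Of 24 cholangiocyte markers, summed levels were 62962, 25174, 1376 and 12350 scaled CPM in the order given for Prom1, and of 20 endothelial markers 229, 10081, 26261 and 20270. The library labelled as Prom1+CD49f+CD45+ thus held the least duct marker RNA and the most endothelial marker RNA, and in bulk samples fewer cells of a type and less RNA per cell cannot be told apart. A level of background came from genes with no known role in liver: percentile 95 of 1471 chemosensory receptor genes was 0.817, 0.353, 1.09 and 0.0450 scaled CPM, again in that order.

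Of the 10 secretion genes, 8 were highest in Prom1+CD49f+CD45- cells, the exceptions being Aqp1 and Slc9a3, although for Slc4a2 the lead over presorted cells was within counting error. In Prom1+CD49f+CD45- against Prom1-CD49f+CD45- cells, 8 were called higher and 1 lower. Of all genes 28.2% were called, 15.5% higher and 12.7% lower. The median log2 ratio of the 10 was 2.42, against 0.31 over all genes compared. This split of all calls depended on scaling: 54.8% of calls were higher with TMM, 66.9% with library totals and 45.5% under DESeq2 size factors. The 8 higher calls and the 1 lower call were the same in number under both other scalings.

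**Figure D1:**
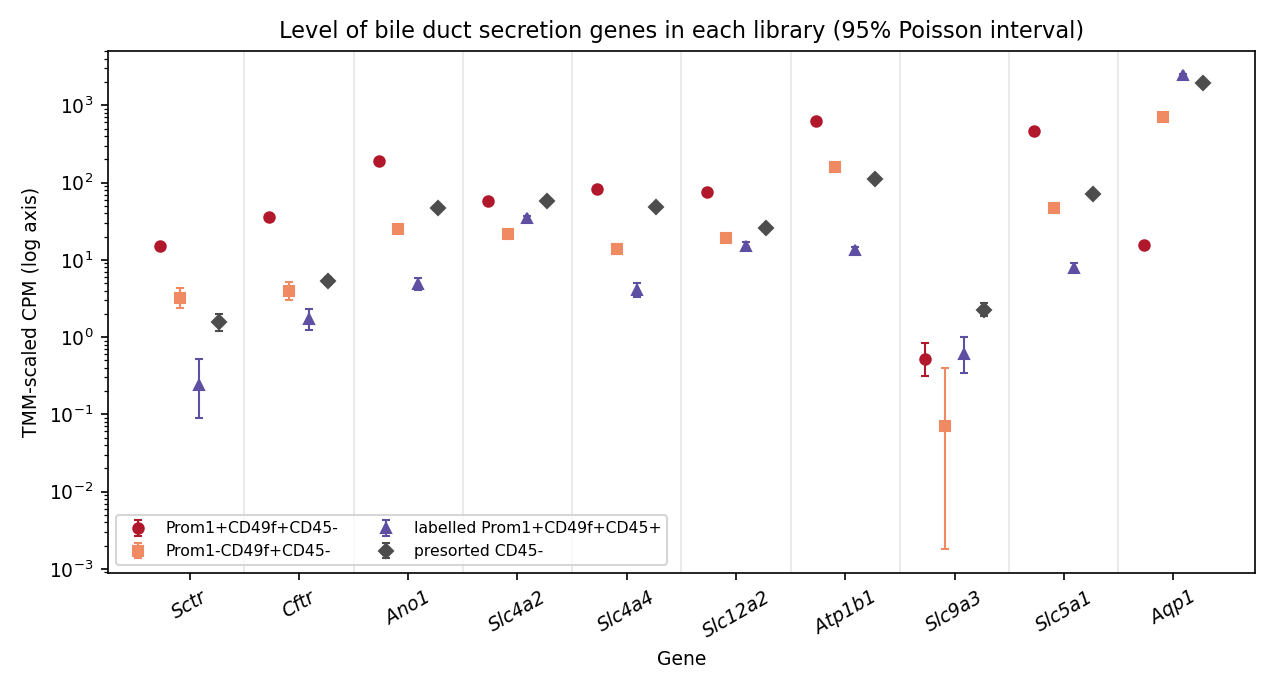
Level of each of the 10 secretion genes in the 4 libraries, as TMM-scaled CPM on a log axis, with bars for exact 95% Poisson intervals. Sctr, Cftr, Ano1, Slc4a4, Slc12a2, Atp1b1 and Slc5a1 are highest in Prom1+CD49f+CD45- cells, whereas Aqp1 is lowest there at 15.4 and reaches 2487 in the library labelled as Prom1+CD49f+CD45+.

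Sctr (ENSMUSG00000026387; chromosome 1, 120006894 to 120063536, plus strand, mm10) encodes the secretin receptor, which in liver is found on cholangiocytes. Its level was 15.3 (14.0 to 16.7) scaled CPM in Prom1+CD49f+CD45- cells, 3.25 (2.38 to 4.33) in Prom1-CD49f+CD45- cells, 0.242 (0.0887 to 0.526) in the library labelled as Prom1+CD49f+CD45+ and 1.55 (1.21 to 1.97) in presorted cells. No neighbouring pair in this order of levels overlapped, and the library labelled as Prom1+CD49f+CD45+ lay within the level of chemosensory genes, with 6 counts. The ratio was 4.71-fold (3.48 to 6.51) over Prom1-CD49f+CD45- cells and 9.85-fold (7.65 to 12.8) over presorted cells. Sctr was 1 of 2 members, with Atp1b1, that stood higher in Prom1-CD49f+CD45- cells than in the presorted ones, at 2.09-fold (1.41 to 3.08), and neither was called. With the trend of ratios on transcript length removed, the Sctr difference between the Prom1+ and Prom1- gates was 7.16-fold, and that between Prom1-CD49f+CD45- and presorted cells 1.35-fold.

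Cftr (ENSMUSG00000041301; chromosome 6, 18170687 to 18322768, plus strand) encodes the apical chloride channel that cyclic AMP opens. It was at 36.0 (34.0 to 38.1) scaled CPM in Prom1+CD49f+CD45- cells, 3.96 (2.99 to 5.14) in Prom1-CD49f+CD45- cells, 1.69 (1.22 to 2.29) in the library labelled as Prom1+CD49f+CD45+ and 5.33 (4.68 to 6.06) in presorted cells. The intervals of the Prom1-CD49f+CD45- and presorted libraries overlapped, and 76.6% of the level summed over the 4 libraries was in Prom1+CD49f+CD45- cells. The ratio was 9.10-fold (6.96 to 12.1) over Prom1-CD49f+CD45- cells, 6.75-fold (5.87 to 7.79) over presorted cells and 21.3-fold (15.6 to 29.7) over the library labelled as Prom1+CD49f+CD45+. Per kilobase of exon, Cftr was at 0.218 scaled CPM in that labelled library. This lay below percentile 95 of the chemosensory genes there on the same scale, 0.467, although the level without length lay above theirs.

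Ano1 (ENSMUSG00000031075; chromosome 7, 144588549 to 144751974, minus strand) encodes the chloride channel that calcium opens, which serves secretion driven by purine nucleotides in bile. Its levels were 188 (183 to 193) scaled CPM in Prom1+CD49f+CD45- cells, 25.3 (22.7 to 28.0) in Prom1-CD49f+CD45- cells, 4.91 (4.08 to 5.87) in the library labelled as Prom1+CD49f+CD45+ and 47.0 (45.0 to 49.1) in presorted cells. Ano1 was 7.44-fold higher (6.68 to 8.29) in Prom1+CD49f+CD45- than in Prom1-CD49f+CD45- cells and 4.0-fold higher (3.81 to 4.2) than in presorted cells. Per kilobase of exon, the calcium-gated channel was the more abundant of the channel pair in Prom1+CD49f+CD45- cells, with 30.1 scaled CPM per kilobase for Ano1 and 4.64 for Cftr.

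Both bicarbonate transporters were called higher in Prom1+CD49f+CD45- than in Prom1-CD49f+CD45- cells, and neither was called over presorted cells. Slc4a2 (ENSMUSG00000028962; chromosome 5, 24423837 to 24440950, plus strand) encodes anion exchanger 2, which trades chloride for bicarbonate and is used by many cell types. It was at 58.3 (55.8 to 60.9) scaled CPM in Prom1+CD49f+CD45- cells, 21.6 (19.3 to 24.2) in Prom1-CD49f+CD45- cells, 34.6 (32.4 to 37.0) in the library labelled as Prom1+CD49f+CD45+ and 58.2 (56.0 to 60.5) in presorted cells. The gate with Prom1 and its source therefore did not differ in Slc4a2 beyond counting error, at a ratio of 1.00 (0.945 to 1.06), while the gate without Prom1 was lowest. Its 2.70-fold ratio (2.39 to 3.05) between the Prom1+ and Prom1- gates was no longer called with the length trend removed, at 2.17-fold.

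Slc4a4 (ENSMUSG00000060961; chromosome 5, 88886818 to 89239653, plus strand) encodes a cotransporter of sodium and bicarbonate that loads the cell with base. It stood at 83.5 (80.5 to 86.7) scaled CPM in Prom1+CD49f+CD45- cells, 13.8 (11.9 to 15.8) in Prom1-CD49f+CD45- cells, 4.07 (3.31 to 4.94) in the library labelled as Prom1+CD49f+CD45+ and 48.2 (46.2 to 50.3) in presorted cells. Per kilobase its level in that labelled library, 0.376, lay below percentile 95 of the chemosensory genes there, 0.467. Presorted cells held the second highest level, and Slc4a4 was called between the Prom1 gates at 6.06-fold (5.24 to 7.05) but not over presorted cells at 1.73-fold (1.64 to 1.83), which was called with library totals (log2 ratio 1.21). The 16 hepatocyte markers were also highest in presorted cells, with sums of 12713, 9071, 1001 and 45331 scaled CPM in the order of the libraries above, and their part in the Slc4a4 level was not tested.

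On the basolateral side, Slc12a2 (ENSMUSG00000024597; chromosome 18) encodes the cotransporter that brings in sodium, potassium and chloride. It was at 75.5 (72.6 to 78.5) scaled CPM in Prom1+CD49f+CD45- cells, 19.1 (16.9 to 21.5) in Prom1-CD49f+CD45- cells, 15.2 (13.7 to 16.8) in the library labelled as Prom1+CD49f+CD45+ and 25.9 (24.5 to 27.5) in presorted cells. The 3 lower libraries lay close together, each apart from the next beyond its interval. Ratios of the Prom1+CD49f+CD45- library were 3.96-fold (3.49 to 4.50) over Prom1-CD49f+CD45- cells, 2.91-fold (2.71 to 3.12) over presorted cells and 4.96-fold (4.45 to 5.54) over the library labelled as Prom1+CD49f+CD45+.

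Atp1b1 (ENSMUSG00000026576; chromosome 1, 164437109 to 164458355, minus strand) encodes a beta subunit of the sodium pump, which carries the catalytic alpha subunit to the membrane. It was the most abundant member in Prom1+CD49f+CD45- cells on both scales, at 623 (614 to 631) scaled CPM, rank 122 of 21640 genes, and 202 scaled CPM per kilobase. The other libraries held 157 (151 to 164) scaled CPM in Prom1-CD49f+CD45- cells, 13.3 (11.9 to 14.8) in the library labelled as Prom1+CD49f+CD45+ and 110 (107 to 113) in presorted cells. Atp1b1 was 3.95-fold higher (3.79 to 4.13) in Prom1+CD49f+CD45- than in Prom1-CD49f+CD45- cells, 5.67-fold higher (5.49 to 5.85) than in presorted cells and 47.0-fold higher (42.1 to 52.5) than in the library labelled as Prom1+CD49f+CD45+. An exon of the annotated gene overlaps Nme7 on the opposite strand, exons of Slc4a2 overlap Fastk and Gm22333, and those of Cftr overlap Gm15592, and the sources used here do not say whether reads were counted by strand.

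Slc5a1 (ENSMUSG00000011034; chromosome 5, 33104219 to 33162870, plus strand) encodes the carrier SGLT1, which takes glucose up with sodium across the apical membrane. Its levels were 471 (463 to 478) scaled CPM in Prom1+CD49f+CD45- cells, 46.4 (42.9 to 50.1) in Prom1-CD49f+CD45- cells, 7.94 (6.87 to 9.13) in the library labelled as Prom1+CD49f+CD45+ and 70.7 (68.3 to 73.2) in presorted cells. It had the widest called ratio among the members between the Prom1+ and Prom1- gates, apart from Aqp1, at 10.1-fold (9.38 to 11.0), ranked 175 of 21640 genes in Prom1+CD49f+CD45- cells, and had 79.0% of its summed level there. Over the library labelled as Prom1+CD49f+CD45+ it was 59.3-fold higher (51.5 to 68.6), and over presorted cells 6.65-fold (6.40 to 6.92).

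Slc9a3 (ENSMUSG00000036123; chromosome 13, 74121457 to 74169442, plus strand) encodes the apical sodium-proton exchanger NHE3, which absorbs sodium. It had 18 counts in Prom1+CD49f+CD45- cells, 1 in Prom1-CD49f+CD45- cells, 15 in the library labelled as Prom1+CD49f+CD45+ and 101 in presorted cells, or 0.525, 0.0706, 0.604 and 2.27 scaled CPM. All 3 sorted libraries lay within the level of chemosensory genes, and presorted cells alone lay above it. Its level in Prom1+CD49f+CD45- cells was 4.33-fold below presorted cells (2.60 to 7.60). The ratio between the Prom1+ and Prom1- gates, 7.44 (1.17 to 310), rests on 1 count in the Prom1-CD49f+CD45- library and was not called.

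Aqp1 (ENSMUSG00000004655; chromosome 6, 55336432 to 55348555, plus strand) encodes a water channel of duct cells that endothelium, red blood cells and mesothelium also make. It was at 15.4 (14.1 to 16.8) scaled CPM in Prom1+CD49f+CD45- cells, 714 (700 to 728) in Prom1-CD49f+CD45- cells, 2487 (2467 to 2506) in the library labelled as Prom1+CD49f+CD45+ and 1928 (1915 to 1941) in presorted cells. The library with the most duct marker RNA therefore held the least Aqp1, 46.2-fold less (42.4 to 50.6) than Prom1-CD49f+CD45- cells and 125-fold less (115 to 136) than presorted cells, and the library labelled as Prom1+CD49f+CD45+ ranked it 23 of 21640 genes. All 20 endothelial markers were called lower in Prom1+CD49f+CD45- cells in the same comparisons, and their sums follow the same order over the 4 libraries as Aqp1; none was at 0, and their part in the Aqp1 difference was not tested. Among them Ehd3 stood at 29.3, 752, 4291 and 3457 scaled CPM and Clec4g, a lectin of sinusoidal endothelium, at 21.5, 1932, 3262 and 2464, in the order Prom1+CD49f+CD45-, Prom1-CD49f+CD45-, labelled Prom1+CD49f+CD45+ and presorted. The 9 erythroid markers summed to 4.93, 11.4, 8.98 and 273 scaled CPM and the 7 mesothelial markers to 221, 511, 13.7 and 146 in the same order, and their part in the Aqp1 levels was not tested.

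**Figure D2:**
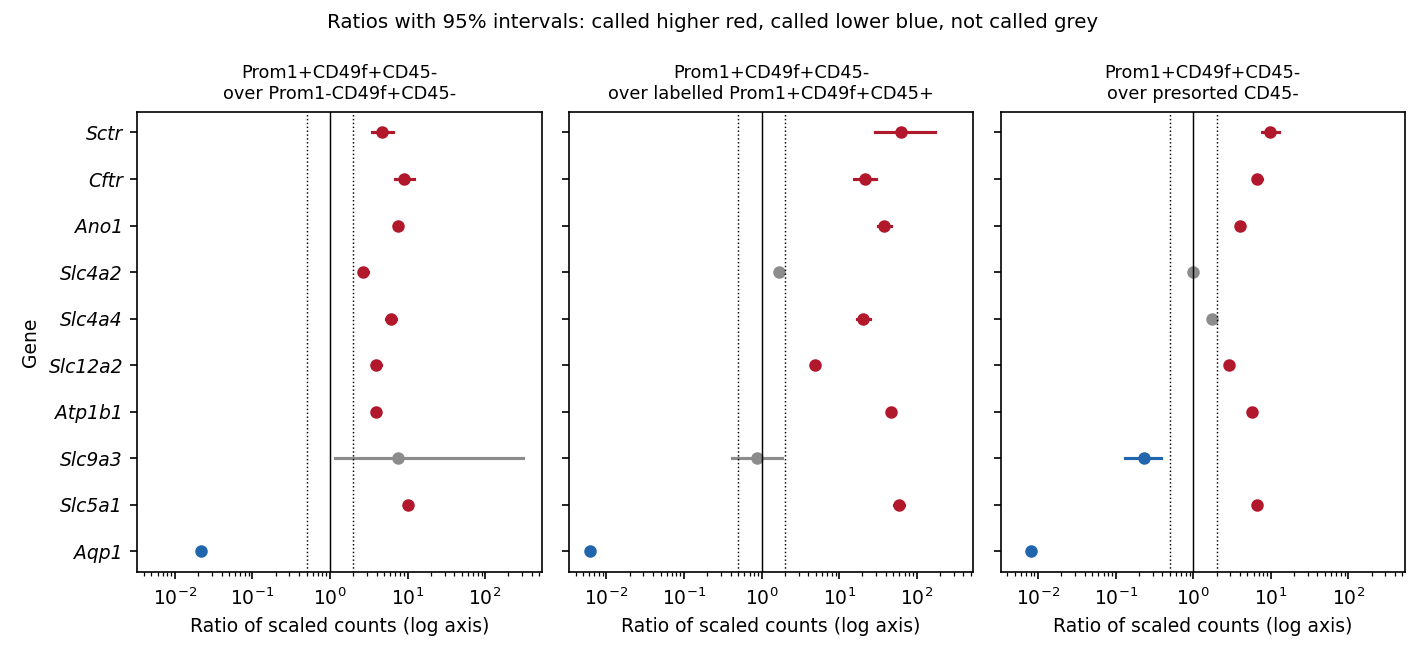
Ratio of scaled counts of each secretion gene in Prom1+CD49f+CD45- cells over each of the other 3 libraries, on a log axis, with exact 95% intervals and dotted lines at 2-fold; red and blue mark genes called higher and lower. Aqp1 lies far to the left in all 3 panels, and Slc4a2 is at 1.00 over presorted cells.

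Sequences of the promoter region are shown for Cftr and Slc5a1, which were both highest in Prom1+CD49f+CD45- cells, and for Aqp1, whose profile ran the other way, so that their base composition can be compared. Each is the 250 bases before the RefSeq start of the gene (GRCm38.p6, the same assembly as mm10), read 5′ to 3′ on the plus strand, at chr6:18170437-18170686 for Cftr, chr5:33103969-33104218 for Slc5a1 and chr6:55336049-55336298 for Aqp1. Capitals mark exact matches on either strand to GGGCGG, the core bound by SP1, and to CACCC, a core bound by Kruppel-like factors.
Cftr: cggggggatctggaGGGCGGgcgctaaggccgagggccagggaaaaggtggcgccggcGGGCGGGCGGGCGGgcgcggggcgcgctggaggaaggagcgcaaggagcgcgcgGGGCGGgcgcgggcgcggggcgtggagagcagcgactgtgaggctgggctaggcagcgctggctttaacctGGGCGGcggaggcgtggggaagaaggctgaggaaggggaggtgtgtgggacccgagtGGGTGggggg
Slc5a1: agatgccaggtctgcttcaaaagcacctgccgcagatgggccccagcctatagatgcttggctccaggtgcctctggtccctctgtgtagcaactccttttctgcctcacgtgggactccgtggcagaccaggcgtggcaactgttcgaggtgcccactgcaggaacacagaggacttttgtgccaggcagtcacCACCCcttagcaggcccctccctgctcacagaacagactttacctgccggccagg
Aqp1: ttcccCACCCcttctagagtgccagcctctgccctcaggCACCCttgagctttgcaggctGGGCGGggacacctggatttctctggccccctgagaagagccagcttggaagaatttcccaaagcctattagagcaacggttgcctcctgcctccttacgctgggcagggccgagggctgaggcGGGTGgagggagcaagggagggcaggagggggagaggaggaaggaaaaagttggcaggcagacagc
The Cftr stretch held 6 matches to GGGCGG, of which the 3 in the run of capitals overlap each other, and 1 to CACCC. The Slc5a1 stretch held no match to GGGCGG and 1 to CACCC, and the Aqp1 stretch held 1 to GGGCGG and 3 to CACCC. With the 50 bases after the start included, the share of G and C was 71.3% for Cftr, 60.3% for Slc5a1 and 62.7% for Aqp1. RefSeq windows of that size were found for 8 of the 10 genes, 10 windows in all; GGGCGG was in 6 of them, against 35.7% of 32851 windows of all genes, and CACCC in 10, against 57.5%. Searched the same way, the HNF1 partial site GTTAAT, the CRE partial site TGACG, the SOX core ACAAT and the TATA box TATAAA were in none of the 10, against 7.10%, 20.8%, 31.0% and 13.6% of all windows, while the HNF4 partial site CAAAG was in 5 (53.9% of all) and the ETS core GGAAG in 8 (71.4% of all). A match describes letters, not binding.

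Among the members, 3 kept nearly the same level relative to duct marker RNA in 3 of the 4 libraries. This ratio to the summed cholangiocyte markers was looked at after the levels were seen. Atp1b1 was at 9.89 scaled CPM per 1000 of the summed markers in Prom1+CD49f+CD45- cells, 9.63 in the library labelled as Prom1+CD49f+CD45+ and 8.90 in presorted cells, but at 6.25 in Prom1-CD49f+CD45- cells. Slc5a1 was at 7.47, 5.77 and 5.73 in the same 3 libraries and at 1.84 in Prom1-CD49f+CD45- cells, and Ano1 at 2.99, 3.57 and 3.81 and at 1.00. The gate without Prom1 was therefore the low library for these genes on this scale.

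Between the Prom1+ and Prom1- gates the summed cholangiocyte markers differed 2.50-fold, and the intervals of Cftr, Sctr, Slc4a4, Ano1, Slc5a1, Atp1b1 and Slc12a2 lay wholly above that value. Slc5a1 exceeded it 4.05 times and Cftr 3.64 times. Of the 24 marker genes, 17 were called higher between these gates, 1 lower and 6 not called. Among 4 named after their values were seen, Krt19, a duct keratin gene, was 1.44-fold higher (1.39 to 1.5) and not called, Epcam 2.45-fold (2.37 to 2.53), and Cdh1, the E-cadherin gene, 11.6-fold (11.2 to 12.1), while Cd9, a tetraspanin gene, was 3.75-fold lower (3.67 to 3.83). The 7 transport genes above lay within the range of the markers. Slc4a2, Slc12a2 and Aqp1 did not keep such a ratio, at 25.2, 11.1 and 1807 scaled CPM per 1000 of the markers in the library labelled as Prom1+CD49f+CD45+, against 4.71, 2.10 and 156 in presorted cells. Cftr was also highest in that labelled library, at 1.23 against 0.432 in presorted cells and 0.572 in Prom1+CD49f+CD45- cells. The value of 1.23 rests on a Cftr level near background, 1.69 scaled CPM against 1.09 for percentile 95 of chemosensory genes. Per kilobase Cftr lay below that percentile there, at 0.218 against 0.467.

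**Figure D3:**
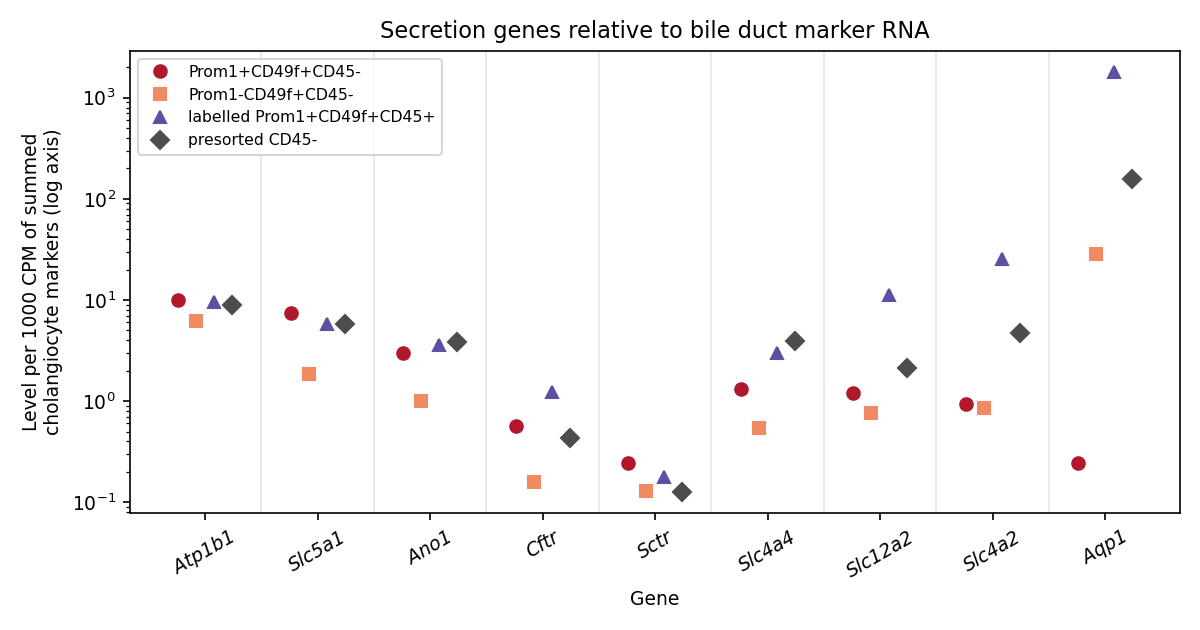
Level of 9 secretion genes per 1000 scaled CPM of the summed 24 cholangiocyte markers, on a log axis, in the 4 libraries; Slc9a3 is left out because its sorted libraries lie within background. Atp1b1, Slc5a1 and Ano1 keep close values except in Prom1-CD49f+CD45- cells, while Cftr, Slc4a2, Slc12a2 and Aqp1 are highest in the library labelled as Prom1+CD49f+CD45+. In that labelled library Sctr lies within background, as do Cftr and Slc4a4 per kilobase of exon.

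Against presorted CD45- cells, the source of the sort, 6 of the 10 genes were called higher in Prom1+CD49f+CD45- cells and 2 lower. Of all genes 43.2% were called, 27.6% higher and 15.6% lower. The 6 were Sctr, Cftr, Ano1, Slc12a2, Atp1b1 and Slc5a1, from 2.91-fold for Slc12a2 to 9.85-fold for Sctr, and the 2 lower were Aqp1 and Slc9a3. The Slc9a3 call was lost with library totals (log2 ratio -1.70). For Prom1-CD49f+CD45- cells against presorted cells, none was called higher and 4 lower, where 23.9% of all genes were called, 9.77% higher and 14.1% lower. The 4 were Slc4a2 at 2.69-fold (2.39 to 3.04), Slc4a4 at 3.50-fold (3.02 to 4.08), Aqp1 at 2.70-fold (2.65 to 2.76) and Slc9a3 at a ratio of 0.0311 that rests on 1 count. With the length trend removed the Slc4a2 call was lost there, at 2.24-fold. In the gate without Prom1, 12 of 24 cholangiocyte markers were called higher than in presorted cells, with Krt19 at 2.82-fold (2.68 to 2.96), whereas Ano1 was at a ratio of 0.538 and Slc5a1 at 0.656, not called. Of all calls in this comparison 40.9% were higher with TMM, 52.5% with library totals and 51.5% under DESeq2 size factors.

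Set against the library labelled as Prom1+CD49f+CD45+, Prom1+CD49f+CD45- cells had 7 members called higher and 1 called lower, where 25.6% of all genes were called, 12.5% higher and 13.1% lower. Ratios ran from 4.96-fold for Slc12a2 to 63.3-fold (28.9 to 173) for Sctr, which rests on 6 counts in the library labelled as Prom1+CD49f+CD45+, and Aqp1 was 161-fold lower (148 to 176). Slc4a2, at 1.68-fold (1.55 to 1.83), and Slc9a3 were not called. The library labelled as Prom1+CD49f+CD45+ against presorted cells had 7 members lower and none higher, where 35.9% of all genes were called, 12.1% lower and 23.8% higher. Slc4a4 was 11.9-fold lower (9.71 to 14.6) there, Ano1 9.57-fold (7.97 to 11.6), Slc5a1 8.91-fold (7.72 to 10.3) and Atp1b1 8.29-fold (7.41 to 9.30), beside summed cholangiocyte markers that were 8.98-fold lower, while Aqp1 was 1.29-fold higher (1.28 to 1.30) and not called. The calls of Cftr and Slc9a3 were lost with library totals (log2 ratios -1.32 and -1.57). Per kilobase, Cftr and Slc4a4 lay within the level of chemosensory genes in the library labelled as Prom1+CD49f+CD45+. The comparisons with presorted cells share that library, and those of Prom1+CD49f+CD45- cells share theirs.

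A wider list of 85 related transport genes, grouped by role, was compared in the same way, and 81 passed the count filter. Between the Prom1+ and Prom1- gates 22 were called higher and 15 lower, where 15.5% of all genes were higher and 12.7% lower. The median log2 ratio of the related genes was 0.48, against 0.31 over all genes. With the length trend removed the order reversed, at 0.29 against 0.42. Channels had the most higher calls, 8 of 13 with 2 lower. Ano6, a calcium-activated scramblase of the anoctamin family, was 4.35-fold higher (4.07 to 4.66), and Clcn3, an intracellular chloride-proton exchanger, 2.79-fold (2.57 to 3.04), while Clic1 was 2.64-fold lower (2.56 to 2.73). Among bicarbonate and anion exchangers 1 of 7 was higher: Slc4a3, the relative of Slc4a2 known as anion exchanger 3, at 41.6 scaled CPM in Prom1+CD49f+CD45- cells, 6.50 in Prom1-CD49f+CD45- cells, 1.85 in the library labelled as Prom1+CD49f+CD45+ and 2.81 in presorted cells. Slc4a3 was thus 6.40-fold (5.18 to 7.99) and 14.8-fold (12.3 to 17.9) above the gate without Prom1 and the presorted cells. For Slc4a2 the ratio was 2.70-fold over the gate without Prom1 but 1.00 over presorted cells.

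The sodium pump genes divided by isoform. Between the Prom1+ and Prom1- gates Atp1b1 was 3.95-fold higher, whereas Atp1b3, another beta subunit gene, was 13.9-fold lower (13.1 to 14.8) and Fxyd5, a pump regulator, 114-fold lower (91.4 to 145). Per kilobase, Atp1b1 stood at 202, 51.1, 4.30 and 35.7 scaled CPM in Prom1+CD49f+CD45-, Prom1-CD49f+CD45-, labelled Prom1+CD49f+CD45+ and presorted cells, and Atp1b3 at 14.3, 199, 151 and 130. Prom1+CD49f+CD45- cells were the library in which Atp1b1 exceeded Atp1b3, and the other 3 had the opposite order. Fxyd3, named here after its values were seen, was at 102, 57.6, 1.89 and 18.4 scaled CPM in the same order of libraries, against 2.31, 263, 122 and 110 for Fxyd5.

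Of 6 genes of sodium-proton exchange and its scaffolds, 1 was called higher between the Prom1 gates, 1 lower and 4 not called. In Prom1+CD49f+CD45- cells, compared with Prom1-CD49f+CD45- cells, Slc9a3r2 (NHERF2) was 9.83-fold lower (9.40 to 10.3) and Ezr, the gene of the membrane linker ezrin, 3.46-fold higher (3.30 to 3.63). Slc9a3r1 (NHERF1), also named after its values were seen, ranged only from 103 to 183 scaled CPM and was not called between the Prom1 gates. Endothelial markers were 20 of 20 lower in Prom1+CD49f+CD45- cells in this comparison, and their part in the lower Atp1b3, Fxyd5 and Slc9a3r2 was not tested.

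**Figure D4:**
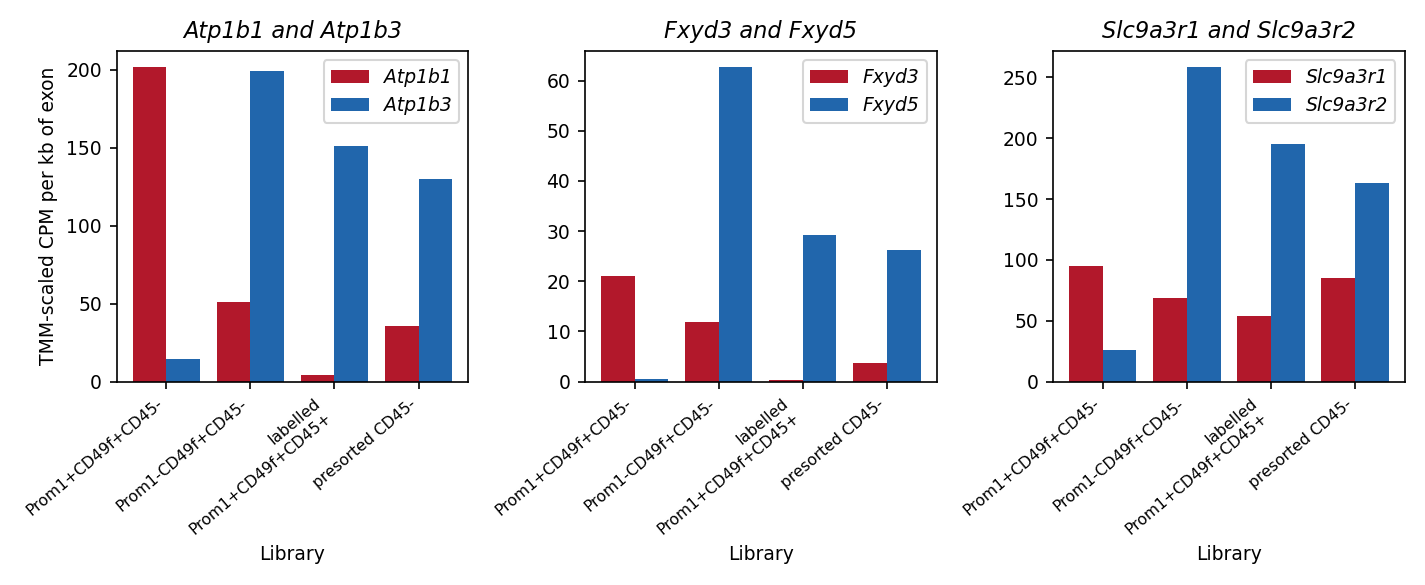
Level per kilobase of exon (TMM-scaled CPM per kilobase, linear axis from 0) of 3 pairs of related genes in the 4 libraries, 1 bar per library. In Prom1+CD49f+CD45- cells Atp1b1, Fxyd3 and Slc9a3r1 exceed their partners Atp1b3, Fxyd5 and Slc9a3r2, and in the other libraries the partners are higher.

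Of 7 water channels other than Aqp1, none was called higher in Prom1+CD49f+CD45- than in Prom1-CD49f+CD45- cells and 1 lower, while 2 were higher and 3 lower over presorted cells. Aqp8 and Aqp9, channels of hepatocytes, were at 0.642 and 3.12 scaled CPM in Prom1+CD49f+CD45- cells and at 26 and 84.8 in presorted cells, and Aqp11 at 5.69 and 15.1, all called lower. Hepatocyte markers were lower in 13 of 16 in the same comparison, and their part was not tested. Of 7 carbonic anhydrase genes 3 were lower and none higher between the Prom1 gates; Car2, a cytosolic enzyme that makes bicarbonate, stood at 175, 124, 18 and 82.2 scaled CPM in the order used above, 2.12-fold higher (2.04 to 2.21) than in presorted cells. Car8, which lacks catalytic activity, was 2.95-fold lower (2.79 to 3.12) than in Prom1-CD49f+CD45- cells.

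Receptors and second messengers were mixed. Of 10 receptors 4 were higher and 3 lower between the Prom1 gates, with P2ry2, which senses nucleotides in bile, 5.87-fold higher (4.94 to 7.01) and Ednrb, the endothelin B receptor, 129-fold lower (119 to 139). P2ry1 did not pass the call there, at 13.5 scaled CPM against 12.9. Of 12 second messenger genes 3 were higher and 2 lower: Itpr3, the apical calcium store receptor of cholangiocytes, was 2.48-fold higher (2.17 to 2.86), Prkaca, a catalytic subunit of protein kinase A, 2.22-fold (2.02 to 2.45), and Rapgef3, which responds to cyclic AMP, 26.4-fold lower (19.3 to 36.8). Wnk4, a kinase upstream of cation-chloride cotransporters, was 4.80-fold higher (3.51 to 6.72), the 1 call among the 7 genes of that role. Of 6 solute carriers 3 were higher and 1 lower: the glucose carrier gene Slc2a2 was 5.78-fold higher (5.39 to 6.19), and the amino acid carrier gene Slc38a2 2.11-fold lower (2.03 to 2.19).

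**Figure D5:**
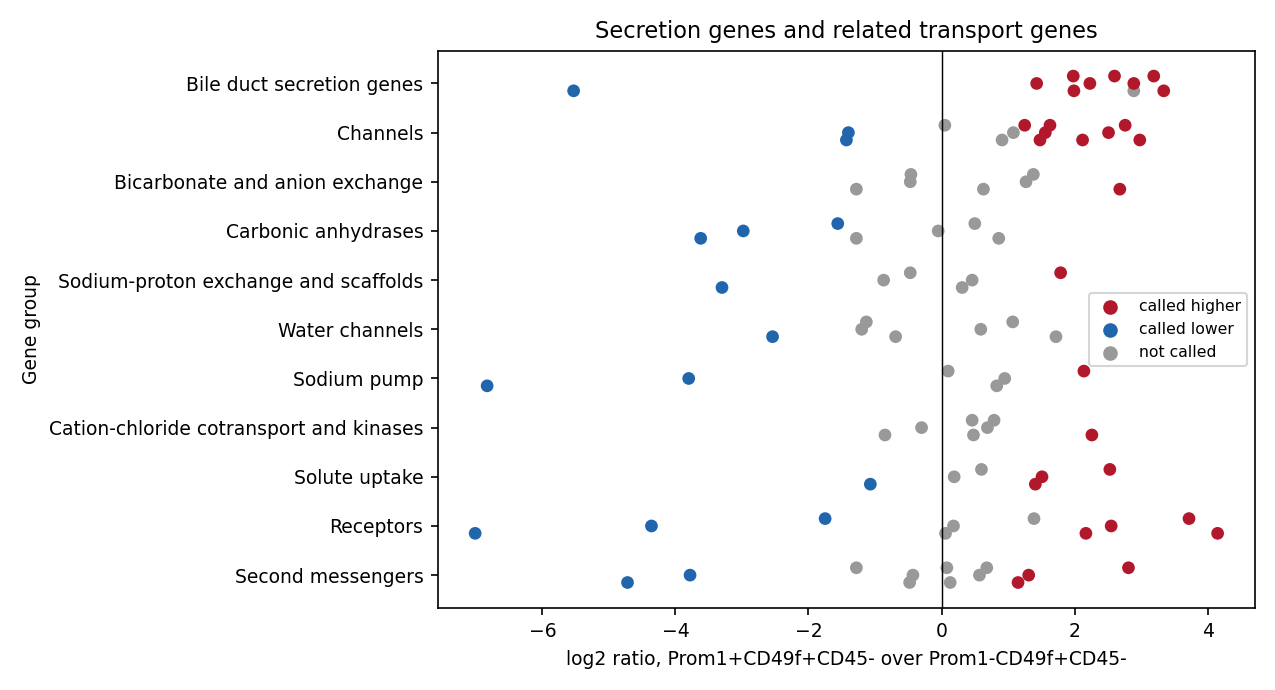
The log2 ratio of Prom1+CD49f+CD45- over Prom1-CD49f+CD45- cells for the 10 secretion genes (top row) and 81 related genes by role, 1 point per gene; red and blue mark genes called higher and lower. Higher calls number 8 of 10 in the top row and 8 of 13 among channels, whereas carbonic anhydrases and water channels have none.

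Against presorted cells, 22 of the 81 related genes were higher in Prom1+CD49f+CD45- cells and 24 lower, where 27.6% of all genes were higher and 15.6% lower, and the median log2 ratio was -0.19 (0.18 over all genes). With library totals the related genes had a median of 0.23, against 0.60 over all genes. Among genes with at least 50 counts in a library these medians were -0.10 and -0.13. Slc4a11, a relative of the bicarbonate transporters, was 7.88-fold higher (6.22 to 10.1) and the taurine carrier gene Slc6a6 2.67-fold higher there. Lower genes included the anion exchanger gene Slc26a6 (3.62-fold), the carbonic anhydrase gene Car9 (2.44-fold) and P2ry1 (3.91-fold). In Prom1-CD49f+CD45- cells 7 were higher and 20 lower (median -0.48, against 0.14), where 9.77% of all genes were higher and 14.1% lower. In the library labelled as Prom1+CD49f+CD45+ 1 was higher and 31 lower (median -0.54, against 0.10), where 23.8% of all genes were higher and 12.1% lower. Prom1+CD49f+CD45- cells over the library labelled as Prom1+CD49f+CD45+ had 24 higher and 14 lower (median 0.23, against -0.18), where 12.5% of all genes were higher and 13.1% lower.

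Genes with the profile nearest to 3 of the members were found by the distance between log2 levels over the 4 libraries, each profile centred on its mean, among 11261 named genes with a mean of at least 5 scaled CPM. Nearest to Cftr were Myo5c, Itgb8 and Thsd4, at distances of 0.13 to 0.16. Nearest to Sctr were Thbs1, Nrbp2 and Ppp2r2b, at 0.10 to 0.23, and nearest to Aqp1 were Gata4, Adgrl4 and Adgrf5, at 0.06 to 0.12. Gata4 was at 2.80 scaled CPM in Prom1+CD49f+CD45- cells, 152 in Prom1-CD49f+CD45- cells, 527 in the library labelled as Prom1+CD49f+CD45+ and 423 in presorted cells, lowest and highest in the same libraries as Aqp1. With 4 libraries such nearness is a description of these samples.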

How the data were processed

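The authors' files hold estimated counts for each gene and, separately, normalized values. The deposited normalized values are CPM with 1 added, as their proportion to the counts shows. Per the submitters' processing notes, TopHat2, Partek and mm10 were used. The sources used here state no settings, annotation release or strand handling. The series title names a 3′ tag method and the labels' protocols a stranded messenger RNA kit with cycle numbers set by input, which bears on levels per kilobase. The column named CD45 was taken as the presorted cells, the remaining population of the design text.

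Of 41128 identifiers 40254 matched GENCODE vM21 (mm10). Estimated counts were rounded and scaled with TMM in edgeR 4.0.16 (R 4.3.3). Ratios carry exact conditional binomial (Clopper-Pearson) 95% intervals and levels exact Poisson intervals, both from scipy 1.17.1; reads without molecular identifiers are not independent molecules. A gene at 0 counts was set against a floor of 3 counts in that library. No p-value was computed, with 1 library per population. The ratio calls were tested on simulated counts drawn from a Poisson model, the counting error that the intervals assume. That test cannot show how calls hold under variation between mice or libraries, because none was simulated. Alternatives were library totals, DESeq2 1.42.0 size factors, other count filters, a 3-fold threshold, removal of the length trend (lowess, statsmodels 0.14.6), the authors' normalized values and a background level. Members and lists were chosen with earlier results of these data known. Named related genes are, per role, the 3 with the highest mean level that were called between the Prom1 gates or between Prom1+CD49f+CD45- and presorted cells; exceptions are stated, and some are not reported here. Promoter sequences are from RefSeq, GRCm38.p6.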

Additional observations from a re-analysis of the deposited data

How the results depend on the processing

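Of 350 ratios of the 10 members recomputed under 7 alternatives, none changed direction while called, and 332 kept their side of the threshold. Of the 18 others, 8 were lost at the 3-fold threshold. The other count filters and the 3-fold threshold leave each member's ratio unchanged by construction, so no direction could change there. Under each of these filters all 50 ratios kept their side for that reason. The number of members highest in Prom1+CD49f+CD45- cells was 8 under each scaling and with the authors' normalized values. Library totals moved the median log2 ratio of all genes by 0.23 between the Prom1 gates, and by 0.42, 0.18 and 0.34 over presorted cells for the Prom1+CD49f+CD45-, Prom1-CD49f+CD45- and labelled Prom1+CD49f+CD45+ libraries. DESeq2 size factors moved it by -0.17 between the Prom1 gates and by 0.17 for Prom1-CD49f+CD45- over presorted cells.

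Counts of members called moved by over 1.5 times in these cases. Lower calls of Prom1+CD49f+CD45- over presorted cells numbered 1 with library totals, the 3-fold threshold or the authors' normalized values, against 2. Lower calls of Prom1-CD49f+CD45- over presorted cells were 2 at the 3-fold threshold, against 4, and those of the library labelled Prom1+CD49f+CD45+ over presorted cells were 4 at that threshold and 4 with the authors' normalized values, against 7. At the 3-fold threshold the related genes called higher were 14 between the Prom1 gates, against 22, and 13 for Prom1+CD49f+CD45- over presorted cells, against 22; for Prom1-CD49f+CD45- over presorted cells 1 was higher, against 7, and 11 lower, against 20. With the authors' normalized values that comparison had 12 higher. For the library labelled Prom1+CD49f+CD45+ over presorted cells related genes higher were 3 with library totals and 3 with the authors' normalized values, against 1. A higher threshold calls fewer genes by construction, and the 1 added to the authors' values shrinks ratios of low genes; other causes were not tested.

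Over all genes, a filter of 50 counts left 3094 higher calls of 5963 for Prom1+CD49f+CD45-, 1390 of 2115 for Prom1-CD49f+CD45- and 1788 of 5154 for the labelled Prom1+CD49f+CD45+ library over presorted cells. The authors' normalized values gave 3230 for Prom1+CD49f+CD45- and 3000 for the labelled Prom1+CD49f+CD45+ library over presorted cells. The 3-fold threshold gave 1497 higher and 1723 lower between the Prom1 gates, against 3349 and 2758, 1070 and 1395 for Prom1-CD49f+CD45- over presorted cells, against 2115 and 3056, and 1863 lower for Prom1+CD49f+CD45- over the labelled Prom1+CD49f+CD45+ library, against 2830. No paired analysis was possible because each population had 1 library. Depth limits Slc9a3, with 1 count in Prom1-CD49f+CD45- cells, and Sctr, with 6 in the library labelled Prom1+CD49f+CD45+.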
